A study of Zea mays with 6 samples.

Results

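The benzoxazinoid genes bx1 to bx8 of maize (Zea mays) were followed in young seedlings of wild type and of the fused leaves1 mutant. The 8 genes were taken by their gene IDs in the B73 RefGen_v4 annotation, as genes of 1 known pathway and not by a threshold on their values, though earlier results of these data were known, and all 8 were found among the 45855 genes of the deposited tables. Polyadenylated RNA was sequenced from whole seedlings at the coleoptile stage, in 3 libraries labelled wild type and 3 labelled Fdl1-/-. The series design calls them biological replicates, but the labels do not say how many seedlings each library holds, nor the lesion of the mutant allele or the background of the wild type. FDL1 is a MYB regulator through which young maize seedlings lay down their cuticle and keep their organs apart, and the comparison asks which transcripts differ when it is mutated.

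Benzoxazinoids are indole-derived defence compounds of grasses, and in young maize seedlings the glucoside of DIMBOA is their main form. BX1 splits indole-3-glycerol phosphate to free indole. The cytochrome P450 enzymes BX2, BX3, BX4 and BX5 then add oxygen step by step to give DIBOA, the glucosyltransferase BX8 attaches glucose, and the dioxygenase BX6 and the O-methyltransferase BX7 finish DIMBOA-glucoside. The glucosides are stored and are split by glucosidases when tissue is damaged, which frees compounds toxic to insects and fungi.

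The genes lie close together. In the row order of the deposited tables bx3, bx4, bx5, bx8, bx1 and bx2 stood within a stretch of 9 rows, with bx6 65 rows before bx3 and bx7 439 rows after bx2. RefSeq's gene table for the later assembly Zm-B73-REFERENCE-NAM-5.0 names all 8 genes on the same chromosome and gives them in the same order. That table does not pair its names with the gene IDs of the deposited tables, so the names used here are those of the list of 8 IDs. Of 18 symbols of other genes of the pathway (further bx genes, indole and tryptophan synthesis, glucosidases) 11 were in that table and 0 could be tied to an ID in the files. Those genes are therefore not analysed here, and the same held for 6 markers of green seedling tissue, so the tissue label was not checked against markers.

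Each library held 26807205 to 36123679 expected counts, the reads that RSEM assigned to genes. In CPM (counts relative to library size, scaled by TMM) wild-type replicate 1 held the highest value of 5 of the 8 members and wild-type replicate 2 the lowest of 6, so fold changes are also given with libraries left out. The ID recalled for the targeted locus, Zm00001d022227, which no table used here pairs with FDL1, had 3.88 to 5.39 CPM in wild type and 3.72 to 4.39 CPM in Fdl1-/-. Its log2 fold change was -0.285 (SE 0.229, edgeR adjusted p 0.651), so the level of that locus did not check the genotype labels.

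Most of the benzoxazinoid genes were among the most abundant transcripts of the seedlings in both genotypes. By TPM 6 or 7 of the 8 were among the top 500 genes of each library, while bx8 ranked between 593 and 2229. In the edgeR test between the genotypes 0 of the 8 passed an adjusted p of 0.05, beside 2.68% of the 26098 genes tested. Together the 8 genes took 0.789% ± 0.193 of all counts in the wild-type libraries, and in Fdl1-/- they took 0.851% ± 0.10 (SD, n = 3). Per library the share was 1.0%, 0.630% and 0.734% in wild-type replicates 1, 2 and 3, and 0.771%, 0.964% and 0.819% in mutant replicates 1, 2 and 3. The groups overlapped, with wild-type replicate 1 highest by share of counts. By summed TPM mutant replicate 2 was highest, at 8253.4 TPM, and wild-type replicate 1 came next, at 7824.7 TPM. In bulk tissue, fewer cells of a type and less RNA per cell cannot be told apart.

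**Figure D1:**
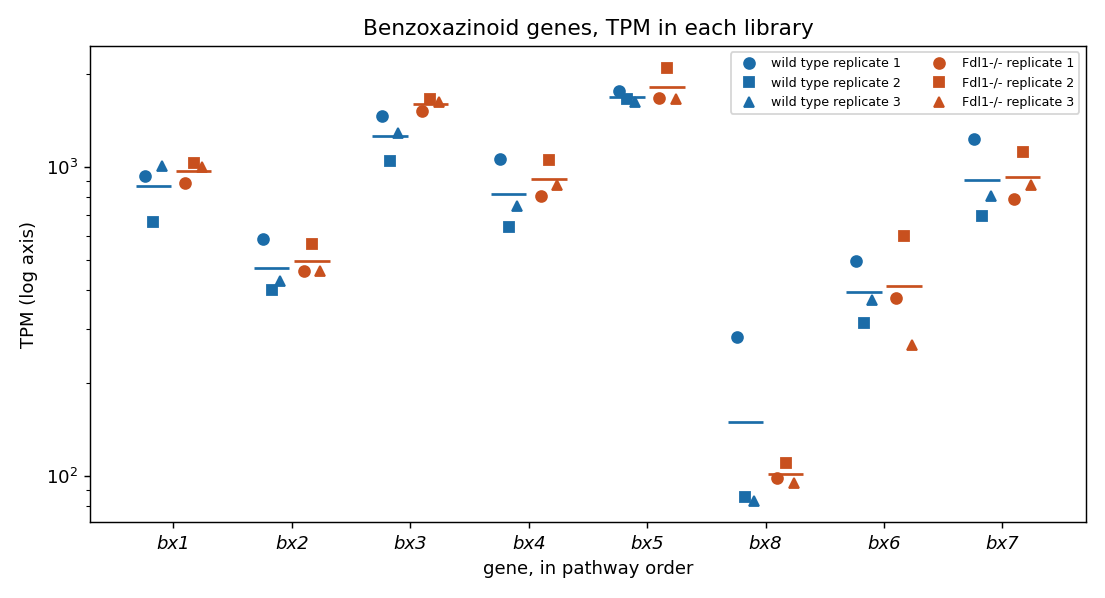
TPM (relative abundance scaled to transcript length, log axis) of the 8 genes in pathway order, with a point for each of 3 wild-type and 3 Fdl1-/- libraries and a line at each group mean. In the points, bx5 lies at the top and bx8 at the bottom in all 6 libraries, and the 281 TPM of bx8 in wild-type replicate 1 lies far above its other 5 values.

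Levels of different genes were compared in TPM, which is scaled to transcript length. In each of the 6 libraries bx5 was the most abundant of the 8 and bx3 came next, while bx8 was the least abundant. Over all 6 libraries the mean level was 1752 ± 179 TPM for bx5 and 1437 ± 232 TPM for bx3 (SD, n = 6). The next 3 genes did not differ beyond their spread, at 922 ± 138 TPM for bx1, 921 ± 209 TPM for bx7 and 866 ± 170 TPM for bx4, and their order changed from library to library. Below them bx2 had 483 ± 75.5 TPM and bx6 had 404 ± 124 TPM, and these also lay within each other's spread, with bx6 above bx2 in mutant replicate 2 only. The glucosyltransferase gene bx8 had 125 ± 76.9 TPM.

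Ranked by TPM among all genes of a library, bx5 stood between place 23 and place 29, and bx3 between 31 and 72. The lowest rank of the P450 genes was 343, reached by bx2. In wild-type replicate 1 bx8 ranked 593, and in the other 5 libraries it ranked between 1614 and 2229. Counts were high enough that counting error was small. It was at most 2.09% of a value, for bx8, and at most 1.04% for the other 7 genes. The spread between replicates was larger, at 19.2% to 97.2% of the mean among wild-type libraries and 4.98% to 42.1% among mutant libraries (coefficient of variation of CPM). Over all 26098 genes tested the median coefficient of variation was 18.8% in wild type and 12.4% in the mutant.

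The entry step, bx1 (Zm00001d048709), passed no threshold between the genotypes. Its level in wild-type replicates 1, 2 and 3 was 936, 664 and 1011 TPM. In mutant replicates 1, 2 and 3 it was 887, 1034 and 1002 TPM. The groups overlapped, with wild-type replicate 2 as the low library. The fold change of Fdl1-/- over wild type was 0.12 on the log2 scale (SE 0.19, 95% interval -0.32 to 0.56, adjusted p 0.838 in the quasi-likelihood test of edgeR). For comparison, 2.68% of the 26098 genes tested passed an adjusted p of 0.05 in that test, and the median log2 fold change over all of them was -0.033.

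Of the P450 genes, bx3 (Zm00001d048702) had the largest difference, and it did not pass the test. Wild-type replicates 1, 2 and 3 had 1464, 1049 and 1291 TPM of bx3, and mutant replicates 1, 2 and 3 had 1524, 1662 and 1630 TPM. In TPM the lowest mutant library of bx3 lay just above the highest wild-type library, whereas in CPM the groups overlapped, with 1896 CPM in wild-type replicate 1 and 1825 CPM in mutant replicate 1. Groups did not overlap in TPM for 20.3% of all tested genes, and in CPM for 21.9%. Its fold change of Fdl1-/- over wild type was 0.30 on the log2 scale (SE 0.17, 95% interval -0.11 to 0.71, edgeR adjusted p 0.494).

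The gene bx2 (Zm00001d048710), whose enzyme acts on indole itself, had 587, 399 and 426 TPM in wild-type replicates 1, 2 and 3. In mutant replicates 1, 2 and 3 it had 462, 564 and 460 TPM. All 3 mutant libraries lay between wild-type replicate 1 and the other wild-type libraries. As a log2 fold change this came to 0.024 for bx2 (SE 0.21, 95% interval -0.47 to 0.52, edgeR adjusted p 0.977). The same arrangement was seen for bx4 (Zm00001d048703), with 1065, 641 and 748 TPM in wild type and 806, 1056 and 880 TPM in the mutant. For bx4 the genotypes differed by 0.11 on the log2 scale (SE 0.24, 95% interval -0.47 to 0.68, edgeR adjusted p 0.901).

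The most abundant member, bx5 (Zm00001d048705), had 1762, 1669 and 1626 TPM in wild-type replicates 1, 2 and 3. In the mutant replicates it had 1682, 2106 and 1666 TPM. The groups overlapped, and mutant replicate 2 was the high library. Between the genotypes bx5 differed by 0.015 on the log2 scale, Fdl1-/- over wild type (SE 0.19, 95% interval -0.43 to 0.46, edgeR adjusted p 0.983).

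The genes of the last steps, bx6 and bx7, did not pass the test either. For bx6 (Zm00001d048634), wild-type replicates 1, 2 and 3 had 499, 312 and 372 TPM, and mutant replicates 1, 2 and 3 had 376, 600 and 265 TPM. Its highest and its lowest value both came from mutant libraries, which differed 2.31-fold in CPM, the widest range of the 8 genes once bx8 in wild-type replicate 1 is set aside. Its fold change of Fdl1-/- over wild type was 0.024 on the log2 scale (SE 0.33, 95% interval -0.76 to 0.81, edgeR adjusted p 0.985). For bx7 (Zm00001d049179), wild-type libraries had 1231, 696 and 810 TPM and mutant libraries had 790, 1122 and 879 TPM. The groups overlapped, with wild-type replicate 1 highest and wild-type replicate 2 lowest. As a log2 fold change this came to -0.025 for bx7 (SE 0.27, 95% interval -0.67 to 0.62, edgeR adjusted p 0.981).

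The glucosyltransferase gene bx8 (Zm00001d048707) was set apart by a single library. Wild-type replicates 1, 2 and 3 had 281, 85.4 and 83.0 TPM, which rest on 8764, 2429 and 2295 expected counts. In the mutant, replicates 1, 2 and 3 gave 98.5, 110 and 94.5 TPM of bx8, from 2322, 3566 and 3231 expected counts. In CPM, wild-type replicate 1 was 4.84 times the mean of the other wild-type libraries. Between the genotypes bx8 differed by -0.78 on the log2 scale, Fdl1-/- over wild type (SE 0.60, 95% interval -2.20 to 0.65, edgeR adjusted p 0.638). With the same 6 libraries the difference was smaller in limma-voom, at -0.36, and in limma on log2 TPM, at -0.32. With the replicate number as a block it was -0.31. It stayed near the edgeR value in DESeq2, at -0.77, and with a filter of 1 CPM in 3 libraries, at -0.78. With offsets for effective transcript length it was -0.65. Without wild-type replicate 1 its sign turned, to 0.41 (SE 0.12, 95% interval 0.13 to 0.69, edgeR adjusted p 0.128).

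**Figure D2:**
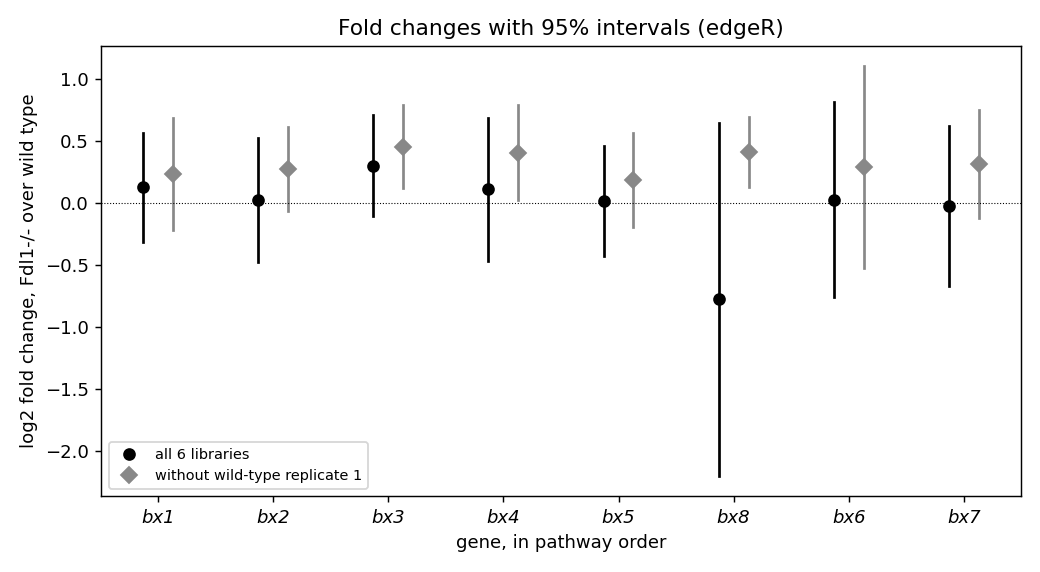
Log2 fold change of Fdl1-/- over wild type for the 8 genes in pathway order, with 95% intervals from edgeR. Black circles use all 6 libraries and grey diamonds leave out wild-type replicate 1; every black interval spans 0, that of bx8 is the widest, and every grey diamond lies above 0.

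Over the 8 genes the median log2 fold change was 0.0242, with 6 values above 0 and 2 below, beside 45.2% of all tested genes above 0. At an unadjusted p under 0.05 the count was also 0 of 8 in edgeR, where 15.8% of all tested genes had such a p, and DESeq2 and limma-voom called 0 of 8, beside 7.67% and 2.76% of all genes they tested. The groups overlapped in CPM for all 8, where 21.9% of all tested genes had groups that did not overlap. For every gene but bx8 the 95% interval lay within 1 log2 unit of 0 on either side, so changes larger than 2-fold were outside the intervals of those 7, while changes within the intervals were not resolved at this replicate number.

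Wild-type replicate 1 had more of every benzoxazinoid gene than the mean of the other wild-type libraries. For all 8 genes its CPM was above both of them, which was so for 40.7% of all tested genes. Relative to the mean of those libraries it ranged from 1.24 times for bx1 and 1.35 times for bx3 to 1.69 times for bx4, 1.80 times for bx7 and 4.84 times for bx8. The median of the log2 ratio was 0.665 over the 8 genes and -0.00447 over all tested genes. A ratio as high as that of bx8 was reached by 2.67% of tested genes. In TPM the ratio was lower for each of the 8 genes, from 1.07 times for bx5 and 1.12 times for bx1 to 3.34 times for bx8. For bx1 wild-type replicate 1 had 936 TPM, below the 1011 TPM of wild-type replicate 3.

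**Figure D3:**
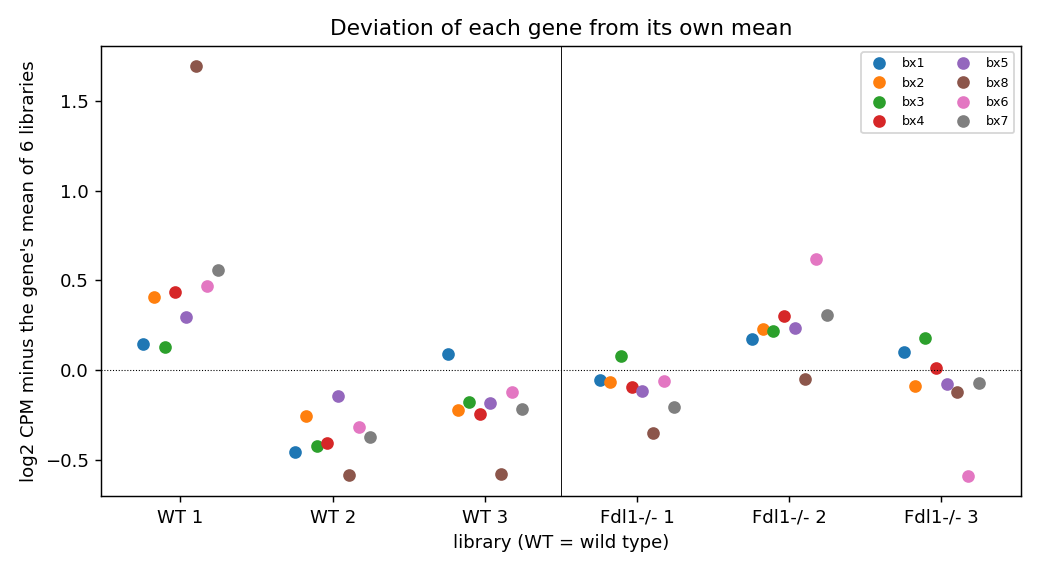
Log2 CPM of each gene less its own mean over the 6 libraries, with a point per gene and library. All 8 genes lie above 0 in wild-type replicate 1 and below 0 in wild-type replicate 2, and 7 of them lie above 0 in mutant replicate 2.

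Most members shifted together from library to library, within each genotype. Wild-type replicate 2 held the lowest CPM of 6 of the 8 genes and wild-type replicate 1 the highest of 5, while mutant replicate 2 held the highest of the remaining 3 (bx1, bx3 and bx6). In mutant replicate 3 bx6 departed from the rest, at -0.589 from its own mean on the log2 scale where bx3 was at 0.181 and bx1 at 0.101.

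Without wild-type replicate 1 all 8 log2 fold changes were above 0, with a median of 0.301, where 49.2% of all tested genes were above 0 and the median over all of them was -0.00505. That library was singled out with the members' high values in it known, so the shift follows in part from the choice and nothing is read from it. The fold changes were 0.23 for bx1, 0.27 for bx2, 0.45 for bx3, 0.40 for bx4 and 0.18 for bx5, and 0.41, 0.29 and 0.31 for bx8, bx6 and bx7. Again 0 of 8 passed an adjusted p of 0.05 in edgeR, beside 2.84% of all tested genes, with 3 of 8 at an unadjusted p under 0.05 beside 19.4% of all tested genes. The lowest adjusted p was 0.128, for bx8. Leaving out mutant replicate 2, the other library in which most members were high, moved the values the opposite way. The log2 fold changes were then 0.073 for bx1 and 0.27 for bx3, and below 0 for the other 6. They were -0.086 for bx2, -0.016 for bx4, -0.10 for bx5, -0.84 for bx8, -0.35 for bx6 and -0.19 for bx7. In that fit too 0 of 8 passed an adjusted p of 0.05, where 184 of the 26566 genes tested did. Over the fits that left out 1 library in turn, every gene but bx3 had values on both sides of 0.

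Ratios within a library do not depend on the scaling between libraries. On the log2 scale, bx3 stood 0.55 ± 0.17 above bx1 in wild type and 0.72 ± 0.05 above it in Fdl1-/- in TPM (SD, n = 3). For bx5 these ratios to bx1 were 0.98 ± 0.33 and 0.89 ± 0.15, and for bx4 they were -0.10 ± 0.31 and -0.10 ± 0.11. For bx2 they were -0.88 ± 0.31 and -0.98 ± 0.13. The group means of these 4 ratios differed by less than the SD among wild-type libraries, and that SD was larger than the SD among mutant libraries for each of the 4.

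The genes of the later steps were set against bx1 in the same way. For bx6 the log2 ratio to bx1 was -1.15 ± 0.27 in wild type and -1.31 ± 0.57 in Fdl1-/-, and for bx7 it was 0.047 ± 0.36 and -0.080 ± 0.17 (SD, n = 3). For bx8 it was -1.74 in wild-type replicate 1, -2.96 and -3.61 in wild-type replicates 2 and 3, and -3.17, -3.24 and -3.41 in the mutant replicates. With wild-type replicate 1 set aside, the mutant ratios of bx8 lay between those of the remaining wild-type libraries. These ratios are given as values only, and no test was made on them.

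**Figure D4:**
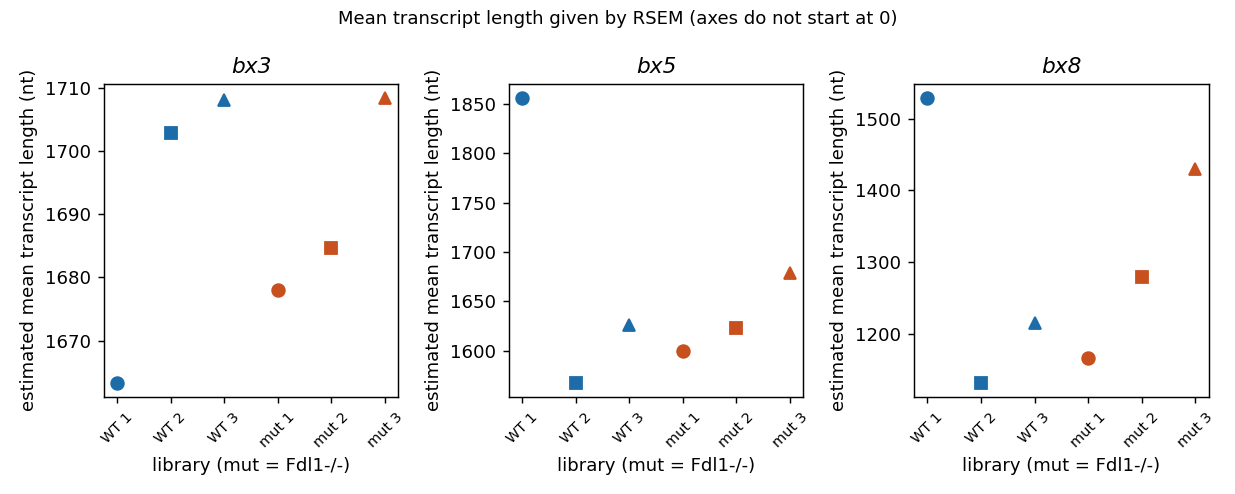
Mean transcript length given by RSEM, in nt, for bx3, bx5 and bx8 in each library (blue wild type, orange Fdl1-/-; axes do not start at 0). Wild-type replicate 1 has the highest value for bx5 and bx8 and the lowest for bx3.

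The estimated mean transcript length of bx5 stood apart in wild-type replicate 1, while for bx8 and bx3 that library lay at the end of the range. RSEM gives each gene a mean length that weights its annotated transcripts by their estimated shares, so this length shifts when the shares shift. For bx8, with 3 annotated transcripts, it was 1529 nt in wild-type replicate 1 and 1132 to 1429 nt in the other libraries. For bx5, with 4 transcripts, it was 1856 nt in that library and 1568 to 1679 nt in the others. In TPM, which is scaled to this length, bx5 was near its other values in wild-type replicate 1, at 1762 TPM. In CPM that library was the highest of the 6 for bx5, at 2552 CPM. Relative to the mean of the other wild-type libraries it had 1.373 times the CPM and 1.069 times the TPM of bx5. For bx2, whose length was 2037 nt in every library, these ratios were 1.565 and 1.422. The units thus differed in that library also where length was constant. The lengths of bx1, bx2, bx4, bx6 and bx7 moved little or not at all. Group means for bx8 were 1292 nt (wild type) and 1291 nt (Fdl1-/-), but wild-type replicates 2 and 3 had 1132 and 1215 nt. For bx5 the group means were 1683 nt (wild type) and 1634 nt (Fdl1-/-).

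Some members shared reads with other genes. Expected counts were whole numbers, within 0.005, in all 6 libraries for bx2, bx3, bx4 and bx5 and in 5 of 6 for bx1, and in 0 of 6 for bx6, bx7 and bx8. A fractional value arises where RSEM divides at least 1 read between genes. How many reads of bx6, bx7 and bx8 were shared was not measured, so the size of any added uncertainty in their values is not known. Over all tested genes 38.6% of values were whole.

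The gene models lying among and around the benzoxazinoid genes were mostly of low abundance. Of 97 other gene models with ID numbers from 20 below bx6 to 20 above bx2, 12 had no count in any library, and the median level was 1.03 TPM. The most abundant of them had a mean of 545 TPM. The 3 rows that stand between bx3 and bx2 without being bx genes had at most 33.6 TPM in any library. The first of them, Zm00001d048704, had 6.42 to 13.1 expected counts in the wild-type libraries, against 15.7 to 28.9 in mutant libraries (log2 fold change 1.14, SE 0.47, edgeR adjusted p 0.295).

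**Figure D5:**
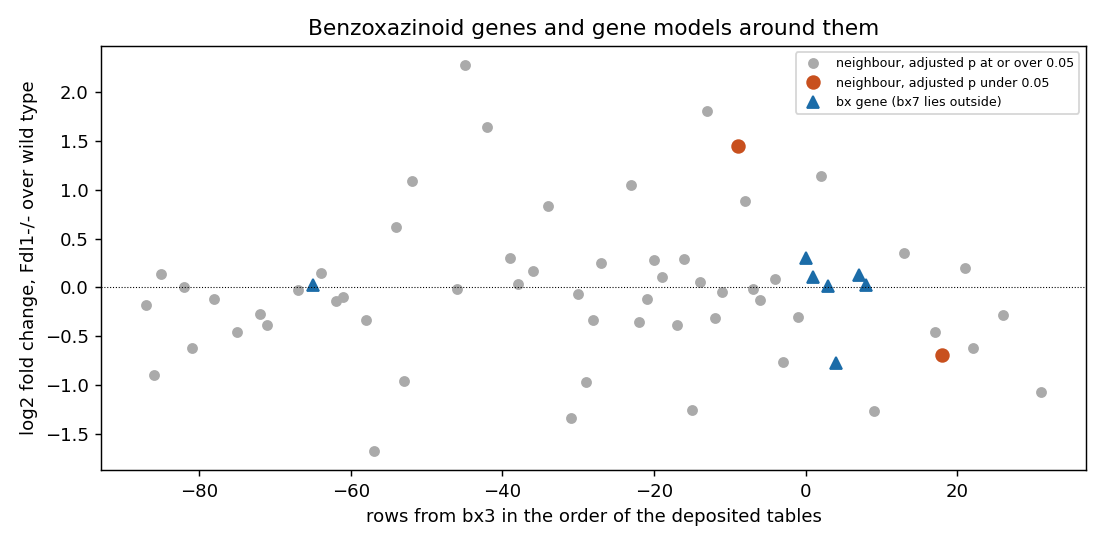
Log2 fold change of Fdl1-/- over wild type for the bx genes (triangles, bx7 lies outside the range) and for 58 tested gene models around them, by rows from bx3 in the deposited order. The 2 neighbours with an adjusted p under 0.05 are drawn in orange, at 1.44 and -0.69, and 6 of the 7 triangles lie near 0.

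Of the 58 neighbours that could be tested, 1 rose and 1 fell in edgeR, or 3.45%, near the 2.68% of all tested genes. Zm00001d048693 rose from 31.8 ± 5.55 to 86.4 ± 12.5 CPM (SD, n = 3), with a log2 fold change of 1.44 (SE 0.17) and an adjusted p of 0.0107 in edgeR. Zm00001d048718 fell from 30.6 ± 3.66 to 19.0 ± 0.467 CPM (SD, n = 3), with a log2 fold change of -0.69 (SE 0.12) and an adjusted p of 0.0375 in edgeR. When mutant replicate 1 was dropped 0 neighbours were called, and when wild-type replicate 2 or mutant replicate 2 or 3 was dropped 1 rose and 0 fell. In limma on log2 TPM 2 rose and 0 fell, and with the replicate number as a block 0 were called. The files do not pair these IDs with names. Zm00001d048711, next after bx2 in the tables and picked here after its values were seen, had 864 expected counts in wild-type replicate 1, 192 and 231 in wild-type replicates 2 and 3, and 62 to 275 in the mutant. Its log2 fold change was -1.26 (SE 0.82, edgeR adjusted p 0.556). Wild-type replicate 1 was above both other wild-type libraries in CPM for 40.7% of all tested genes, so nothing about its place beside bx2 is read from this.

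The genes whose pattern was most like that of the 8 were looked for by the Pearson correlation, over the 6 libraries, with the mean of the members' standardised log-CPM. The highest values were 0.9967 for Zm00001d017649 and 0.9929 for Zm00001d003446, and 60 of the tested genes reached at least 0.95. The first had 15.3, 10.2 and 11.3 CPM in wild-type replicates 1, 2 and 3 and 11.6, 14.0 and 12.2 CPM in the mutant replicates. The second had 31.4, 18.5 and 19.9 CPM in wild type and 22.3, 29.6 and 22.4 CPM in the mutant. Both had the high wild-type replicate 1 and mutant replicate 2 of the benzoxazinoid genes, and neither passed the test between genotypes in edgeR (adjusted p 0.954 and 0.911). They were chosen as the highest of all genes over 6 points, so the values are a description only.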

How the data were processed

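The tables are RSEM output per gene, 1 library each, per the file headers. The deposited expected counts are estimated, with reads common to several genes split among them. In the deposited TPM values length and library total are taken into account. The deposited mean transcript length was used to describe transcript composition only. Bowtie2, RSEM, DESeq2, limma and the build B73 RefGen_v4 are named, without version or role, by the submitters' processing notes. Libraries were made with a stranded mRNA kit, per the labels' protocols.

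Rounded expected counts went into edgeR 4.0.16 under R 4.3.3. The steps were filterByExpr with a minimum count of 10 and a minimum total of 15, TMM scaling and the two-sided quasi-likelihood test on all 6 libraries. No replicate block was used, and p-values were Benjamini-Hochberg adjusted over 26098 genes at a threshold of 0.05. Standard errors were derived from fold changes with their F statistics. The p-values measure the spread between these samples only. Log-CPM used a prior count of 2. The fit was tested on simulated counts. Alternatives included DESeq2 1.42.0 and limma 3.58.1 on counts and on log2 TPM with pseudocounts of 1 and 0.1.

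The members and lists were chosen with earlier results of these data known. Genes named by rule were the 8 members, the targeted locus, the gene model numbered between bx3 and bx2, and the 2 genes most like the members. Outside that rule, the 2 neighbours that passed the test and Zm00001d048711 were named after their values were seen. Symbols came from RefSeq's table for Zm-B73-REFERENCE-NAM-5.0, from which no coordinates were taken. Sequences of the genes were not used here.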

Additional observations from a re-analysis of the deposited data

How the results depend on the processing

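In all 16 alternatives run 0 of the 8 benzoxazinoid genes passed an adjusted p of 0.05. Over all genes the number that passed ran from 122 of 26098 with the replicate block to 1997 of 26038 in DESeq2. The fold changes of most of the benzoxazinoid genes were near 0 and often turned sign. That of bx8, at -0.78 with all libraries in edgeR, turned only without wild-type replicate 1. Leaving out 1 library gave log2 fold changes of -0.043 to 0.23 for bx1, -0.092 to 0.27 for bx2, 0.17 to 0.45 for bx3, -0.051 to 0.40 for bx4, -0.10 to 0.18 for bx5, -0.35 to 0.29 for bx6, -0.20 to 0.31 for bx7 and -1.13 to 0.41 for bx8, so bx3 alone kept its sign. The upper end of each of the 8 came without wild-type replicate 1. In limma-voom bx6 had -0.026 and bx7 had 0.013, and bx7 had 0.055 and 0.056 with limma on log2 TPM with pseudocounts of 1 and 0.1. With the replicate block bx6 had -0.030 and bx7 0.021. No other alternative turned a sign. The ratio of the summed levels in Fdl1-/- to wild type was 1.10 in TPM and 1.06 in CPM.

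Over all genes 699 were called in edgeR, 1997 in DESeq2 and 122 with the replicate block, and leaving out 1 library gave 128 to 837. The count was 149 when wild-type replicate 2 was dropped, and 128, 184 and 193 when mutant replicate 1, 2 or 3 was dropped. Of the neighbouring gene models 2 were called, 6 in DESeq2, 0 with the replicate block and 0 to 2 when 1 library was left out. Dropping mutant replicate 1 left 0, and dropping wild-type replicate 2, mutant replicate 2 or mutant replicate 3 left 1. The causes were not tested. The series design gives no pairing, so the replicate numbers were not taken to pair samples. Deviations from the group means correlated at -0.22, 0.134 and -0.184 between samples of the same number. Between samples of unlike number they correlated at -0.18 to 0.273. With 3 libraries a group these correlations constrain each other, so they cannot decide whether samples were paired. With 3 libraries a group, changes within the 95% intervals were not resolved, and counting error was small beside the spread between libraries.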
